A study of Rattus norvegicus with 47 samples.

Results

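The 9 interferon response genes Ifit2, Ifit3, Rsad2, Mx1, Ddx60, Isg15, Usp18, Oasl and Irf7 were followed in rat kidney 12 months after a metal pellet was implanted. They were taken by symbol from the raw gene count table, where all 9 were found among 22525 genes, and all 9 passed the filter on low counts. The 47 libraries came from rats (Rattus norvegicus) carrying metal cylinders 1 mm wide and 2 mm long. Tantalum (Ta), called inert by the submitters, was the reference, and the test metals were depleted uranium (DU), lead (Pb), aluminum (Al), cobalt (Co) and tungsten (W). There were 8 libraries for each metal except Pb, which had 7. Strain, sex, age, pellet dose and implant site are not given in the sources used here, and every group carried a pellet, so no group shows a kidney without an implant.

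Interferons are secreted proteins that warn cells of viral nucleic acid or tissue damage. Type I interferons bind the receptor chains Ifnar1 and Ifnar2, the kinases Jak1 and Tyk2 phosphorylate STAT proteins, and these join Irf9 in a complex that binds the interferon-stimulated response element (ISRE) in the promoters of response genes. The encoded proteins bind foreign RNA, block viral replication, or tune the pathway itself. In kidney, tubule, endothelial and resident immune cells can all respond, so RNA from whole tissue mixes their contributions.

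The promoters are shown because the ISRE is the DNA element that these genes are known for. RefSeq (GRCr8) promoter windows were matched for 6 of the 9 genes, all but Ifit2, Isg15 and Usp18. The ISRE core was searched on both strands as GAAA, any 2 bases and GAAA again, which the other strand reads as TTTC, any 2 bases and TTTC, in the 250 bases before each annotated start. It was found in 4 of the 6 windows, those of Ddx60, Ifit3, Irf7 and Rsad2, and in 902 of 27457 windows of the same length (3.29%). The letters are not in the windows of Mx1 and Oasl, of which 93 and 217 of the 250 bases lie inside the annotated gene. The gamma-activated site, searched as TTCNNNGAA, which reads the same on both strands, is in 7.52% of all windows and in 0 of the 6. Capitals mark the ISRE core in the stretches below, each read 5′ to 3′ on the gene's strand. Ddx60 lies on chr16:33208844-33208963 (minus strand), Ifit3 on chr1:241527206-241527325 (plus strand), Irf7 on chr1:205800073-205800102 (minus strand) and Rsad2 on chr6:48788248-48788277 (minus strand). The Irf7 window lies inside the annotated gene and the Rsad2 window partly so, and only 30 bases of each are given.
Ddx60: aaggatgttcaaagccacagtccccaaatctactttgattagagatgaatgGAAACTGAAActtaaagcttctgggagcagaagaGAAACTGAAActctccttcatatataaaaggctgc
Ifit3: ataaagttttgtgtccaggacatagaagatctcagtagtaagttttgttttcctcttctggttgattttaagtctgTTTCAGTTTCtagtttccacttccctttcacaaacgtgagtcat
Irf7: acagtttaggTTTCATTTTCccgagacgca
Rsad2: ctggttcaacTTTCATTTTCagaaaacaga
The Ddx60 stretch holds the core as GAAACTGAAA at 2 places, and Ifit3 holds the same letters on the opposite strand. Irf7 and Rsad2 share TTTCATTTTC. A match is a description of the letters and not of binding, which was not measured.

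Libraries held 21604755 to 35775818 counts in genes. Levels are given as CPM, counts over the library total after TMM scaling (trimmed mean of M values, edgeR's usual CPM), and all 9 genes were low, between 0 and 116.65 CPM. Kidney markers were present throughout, although DU replicate 6 had the lowest Slc34a1, the proximal tubule phosphate carrier, at 24.8 CPM against 1355 CPM or more in every other library. The same library had 303.2 CPM of summed neutrophil markers, against at most 9.42 CPM in the groups other than DU. RNA composition also moved with the metals. The mean log2 CPM of cytosolic ribosomal protein genes minus that of genes for very large proteins was 1.13 to 1.96 in Ta and 1.61 to 2.49 in W, which overlapped. It was 1.99 to 2.92 in Co, 2.11 to 3.05 in DU and 2.98 to 4.35 in Pb, all above every Ta library. Al, at 1.9654 to 3.28, was also above every Ta library, the highest of which was at 1.9647.

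Ifit2, which binds RNA and slows translation of viral messages, had the smallest p of the 9 in the test for differences among the 6 metals (edgeR, adjusted p = 5.49e-05). In Ta kidneys it ran from 3.25 to 9.66 CPM with a median of 6.06 CPM. In Pb kidneys it ran from 0.511 to 1.98 CPM with a median of 1.43 CPM. Every Pb library lay below every Ta library, as was so for 13.9% of all genes tested. The mean was 5.82 ± 2.29 CPM (SD, n = 8) in Ta and 1.36 ± 0.481 CPM (SD, n = 7) in Pb, a log2 fold change of −2.10 ± 0.42 (SE), or 4.28 times lower (edgeR quasi-likelihood test, adjusted p = 3.55e-05). Since these are whole kidneys, fewer cells of a type and less RNA per cell cannot be told apart.

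Ifit2 also fell in Co and Al. Co libraries ran from 0.168 to 4.94 CPM with a median of 1.68 CPM, and 6 of the 8 lay below every Ta library. Al libraries ran from 1.29 to 3.51 CPM with a median of 2.03 CPM, and 7 of the 8 lay below every Ta library. The low end of Co was replicate 5, with 4 counts, and its high end was replicate 1. The log2 fold change was −1.49 ± 0.38 in Co (edgeR, adjusted p = 0.00446) and −1.38 ± 0.38 in Al (edgeR, adjusted p = 0.00683). W libraries, at 1.63 to 6.70 CPM with a median of 2.76 CPM, overlapped Ta, and the change of −0.74 ± 0.38 did not pass the test (edgeR, adjusted p = 0.241). DU libraries, at 2.95 to 10.1 CPM with a median of 4.91 CPM, overlapped Ta, with a change of −0.19 ± 0.37 (edgeR, adjusted p = 0.791).

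**Figure D1:**
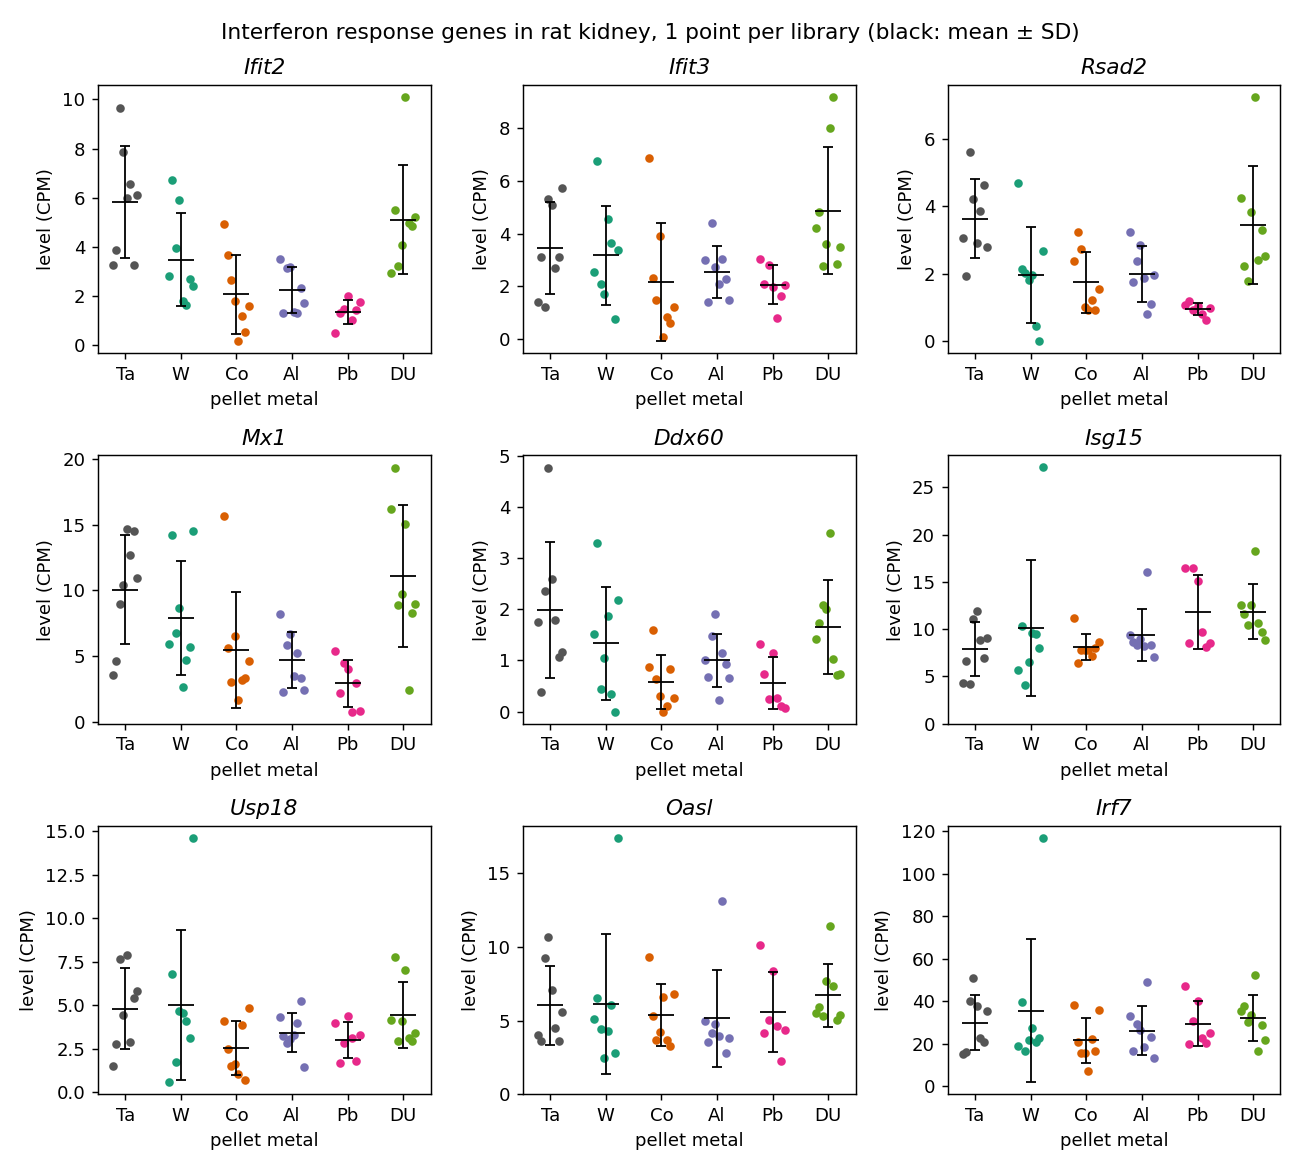
CPM of each of the 9 genes (vertical axes, linear) in every library, by pellet metal; points are libraries and black marks are the mean ± SD. For Ifit2 and Rsad2 all 7 Pb libraries sit below the lowest Ta library, while for Irf7 the single high point is W replicate 8 at 116.65 CPM.

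Ifit3, the neighbour of Ifit2 on chromosome 1 and a partner protein in the same family, did not pass the test in any metal. Ta libraries ran from 1.22 to 5.72 CPM with a median of 3.10 CPM, and W libraries from 0.740 to 6.74 CPM with a median of 2.95 CPM. Pb libraries ran from 0.771 to 3.01 CPM with a median of 2.06 CPM, all below the Ta median but only 1 of 7 below every Ta library. The Pb log2 fold change was −0.75 ± 0.47 (edgeR, adjusted p = 0.174). Co libraries were the most spread, from 0.0842 CPM in replicate 5 to 6.86 CPM in replicate 1, around a median of 1.33 CPM, with a change of −0.67 ± 0.45 (edgeR, adjusted p = 0.264). Without Co replicate 1 the Co change was −1.21 and passed (edgeR, adjusted p = 0.0345). Al libraries (1.40 to 4.40 CPM, median 2.50 CPM) and DU libraries (2.76 to 9.18 CPM, median 3.91 CPM) overlapped Ta.

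Rsad2 (viperin), an enzyme that makes a nucleotide which stops viral RNA synthesis, fell in Pb. Ta libraries ran from 1.93 to 5.62 CPM with a median of 3.47 CPM. Pb libraries lay tightly together, from 0.619 to 1.18 CPM with a median of 0.974 CPM, all below every Ta library. The means were 3.63 ± 1.18 CPM (SD, n = 8) and 0.947 ± 0.186 CPM (SD, n = 7), a log2 fold change of −1.94 ± 0.45, or 3.82 times lower (edgeR, adjusted p = 0.000319). Each Pb value rests on 16 to 29 counts.

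For Rsad2 the other metals were also below Ta in median, without passing the test. Co ran from 0.926 to 3.23 CPM (median 1.38 CPM) and Al from 0.798 to 3.23 CPM (median 1.92 CPM), and all 8 libraries of each lay below the Ta median. The log2 fold change was −1.05 ± 0.41 in Co (edgeR, adjusted p = 0.0555) and −0.86 ± 0.41 in Al (edgeR, adjusted p = 0.120). Leaving out a single library (W replicate 6 or 7, or Co replicate 1, 2 or 3) brought the Co change past the threshold, with adjusted p from 0.0164 to 0.0495 in edgeR. For Al, leaving out W replicate 7 was the only such fit that did so (edgeR, adjusted p = 0.0463). The Co change also passed in 5 of 14 other settings, 1 of which was an adjusted p threshold of 0.1. Among them were DESeq2 (adjusted p = 0.0317) and edgeR with only Ta and Co (adjusted p = 0.0323). The Al change passed in 1 of the 14, edgeR with only Ta and Al (adjusted p = 0.0302). W ran from 0 to 4.69 CPM with a median of 1.99 CPM (−0.88 ± 0.41, edgeR adjusted p = 0.208). The 0 was W replicate 7, where 0 counts allow up to 0.123 CPM before TMM scaling. DU, at 1.78 to 7.25 CPM with a median of 2.92 CPM, overlapped Ta (−0.075, edgeR adjusted p = 0.930).

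Mx1, a dynamin-like GTPase that traps viral components, fell in Pb and Al. Ta libraries ran from 3.62 to 14.7 CPM with a median of 10.7 CPM. Pb libraries ran from 0.816 to 5.41 CPM with a median of 2.98 CPM, all below the Ta median and 4 of 7 below every Ta library. The Pb log2 fold change was −1.76 ± 0.43, or 3.39 times lower (edgeR, adjusted p = 0.000593). Al libraries ran from 2.32 to 8.20 CPM with a median of 4.41 CPM, 4 of 8 below every Ta library, with a change of −1.09 ± 0.40 (edgeR, adjusted p = 0.0406). The Al call was near the threshold: it was lost when any of 12 libraries was left out, Ta replicates 3 to 8, Al replicates 2, 5, 6, 7 and 8, and DU replicate 4, with adjusted p up to 0.0869.

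Mx1 in Co ran from 1.68 to 15.7 CPM around a median of 3.99 CPM, and the highest value, replicate 1, lay above every Ta library. The change of −0.88 ± 0.40 did not pass (edgeR, adjusted p = 0.0975) but was −1.32 without that library (edgeR, adjusted p = 0.0104). It also passed in 3 of 14 other settings, 1 of which was an adjusted p threshold of 0.1. The others were replicate number as a block (edgeR, adjusted p = 0.0281) and replicate numbers 1 to 4 against 5 to 8 as a covariate (edgeR, adjusted p = 0.0366). W (2.71 to 14.5 CPM, median 6.35 CPM, −0.35, edgeR adjusted p = 0.631) and DU (2.47 to 19.3 CPM, median 9.38 CPM, 0.14, edgeR adjusted p = 0.856) overlapped Ta. Ta itself split by replicate number for Mx1, with 3.62 to 10.4 CPM in replicates 1 to 4 and 10.97 to 14.7 CPM in replicates 5 to 8. The labels do not say that these numbers mark a batch. The difference of mean log2 CPM between Pb and Ta was −0.70 within replicates 1 to 4 and −3.27 within replicates 5 to 8. It was −0.26 and −1.87 for Al, and 0.036 and −2.09 for Co. Other genes also differed between the low and high numbers, with −0.85 and −2.85 for Ifit2 in Co, 0.41 and −2.78 for Ifit3 in Co, and −1.11 and −2.92 for Ddx60 in Pb. Ifit2 and Rsad2 in Pb were closer, at −2.16 and −1.88 and at −1.65 and −2.04.

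Ddx60, a helicase of the antiviral RNA response, fell in Pb and Co, on few counts. Ta libraries ran from 0.386 to 4.78 CPM with a median of 1.77 CPM. Pb libraries ran from 0.0749 to 1.33 CPM (median 0.272 CPM) and Co libraries from 0 to 1.595 CPM (median 0.471 CPM). All Pb and Co libraries lay below the Ta median, and 4 of each below every Ta library. The log2 fold change was −1.84 ± 0.67 in Pb (edgeR, adjusted p = 0.0183) and −1.77 ± 0.63 in Co (edgeR, adjusted p = 0.0345). The highest Ta library, replicate 4, bore on both: without it the changes were −1.49 (edgeR, adjusted p = 0.0588) and −1.41 (edgeR, adjusted p = 0.105). The Co call was lost as well without Ta replicate 3 or 5 or Co replicate 4, 5, 6 or 8. Of 14 other settings Ddx60 passed in 9 in Co and in 12 in Pb. Among those where the Co call was lost were limma voom (adjusted p = 0.102) and a fit of only Ta and Co (edgeR, adjusted p = 0.0588). It was also lost with the macrophage marker level as a covariate (−1.17, edgeR adjusted p = 0.162). Co replicate 5 and W replicate 7 had 0 counts, which allow up to 0.110 and 0.123 CPM before TMM scaling. Al (0.222 to 1.91 CPM, median 0.968 CPM), W (0 to 3.29 CPM, median 1.28 CPM) and DU (0.721 to 3.50 CPM, median 1.58 CPM) did not pass.

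**Figure D2:**
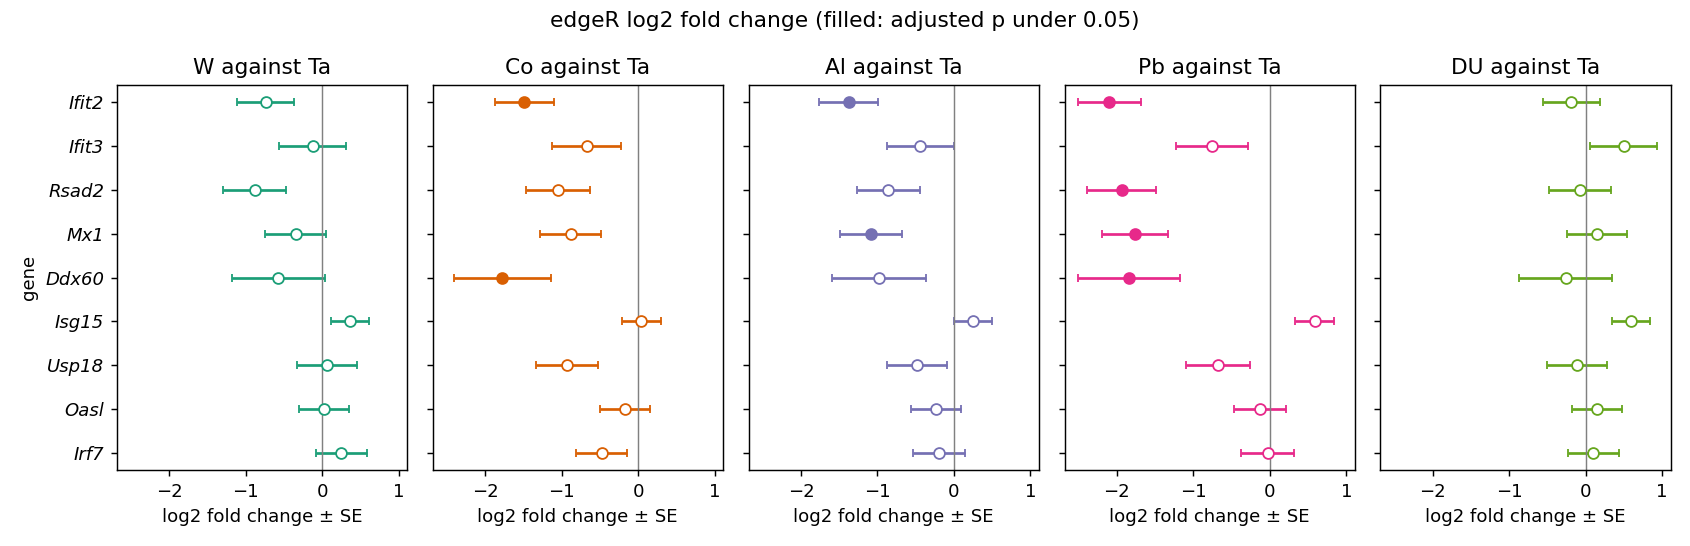
Log2 fold change against Ta (horizontal axis) with its standard error for each gene in the 5 comparisons; filled points have an adjusted p under 0.05 in edgeR. The filled points are Ifit2 in Co, Al and Pb, Ddx60 in Co and Pb, Mx1 in Al and Pb, and Rsad2 in Pb, all to the left of 0, while Isg15 lies to the right of 0 in all 5.

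Isg15, a ubiquitin-like protein attached to other proteins, did not share the low levels. Ta libraries ran from 4.22 to 11.9 CPM with a median of 7.87 CPM. Pb libraries ran from 8.09 to 16.4 CPM (median 9.75 CPM) and DU libraries from 8.84 to 18.2 CPM (median 11.1 CPM). Every Pb and every DU library lay above the Ta median, and 3 of each lay above every Ta library. The log2 fold change was 0.59 ± 0.26 in Pb (edgeR, adjusted p = 0.0522) and 0.59 ± 0.25 in DU (edgeR, adjusted p = 0.105), neither past the threshold. The Pb value lies at the threshold: it passed as higher in 11 of 14 other settings, 1 of which was an adjusted p threshold of 0.1, among them DESeq2 (adjusted p = 0.0358), limma voom (0.0272) and edgeR with RLE scaling (0.0430), and in 17 of the 47 fits that left out a library. With the ribosomal minus large-protein level as a covariate it was −0.49 (edgeR, adjusted p = 0.519). The DU change passed in 2 of the 14, limma voom (adjusted p = 0.0145) and edgeR without Ta replicates 4, 5 and 6 (0.0178), and without W replicate 8 (edgeR, adjusted p = 0.0408). The difference of mean log2 CPM between Pb and Ta was 1.16 within replicates 1 to 4 and −0.040 within replicates 5 to 8. Co (6.38 to 11.2 CPM, median 7.83 CPM), Al (7.04 to 15.99 CPM, median 8.49 CPM) and W (4.13 to 27.2 CPM, median 8.77 CPM) did not pass.

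Usp18, the protease that takes Isg15 off its targets and damps the type I receptor, did not pass in any metal. Ta libraries ran from 1.48 to 7.89 CPM (median 4.92 CPM). Co libraries, from 0.686 to 4.81 CPM (median 2.06 CPM), all lay below the Ta median. Pb libraries, from 1.67 to 4.38 CPM (median 3.08 CPM), did so too. The change was −0.93 ± 0.40 in Co (edgeR, adjusted p = 0.0801) and −0.68 in Pb (edgeR, adjusted p = 0.167). At the threshold of 0.05 the Co change passed only without Co replicate 8 (edgeR, adjusted p = 0.0459). W, from 0.571 to 14.6 CPM (median 4.31 CPM), Al, from 1.46 to 5.24 CPM (median 3.27 CPM), and DU, from 2.92 to 7.79 CPM (median 3.73 CPM), overlapped Ta.

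Oasl, an oligoadenylate synthetase-like protein, and Irf7, the transcription factor that amplifies type I interferon genes, did not pass in any metal. Oasl medians lay between 4.04 CPM in Al and 5.74 CPM in DU, with Ta at 5.05 CPM (3.63 to 10.7 CPM). The log2 fold changes of Oasl were between −0.23 and 0.15. Irf7 medians ran from 18.7 CPM in Co to 31.8 CPM in DU, with Ta at 29.1 CPM (15.0 to 50.9 CPM). The Irf7 log2 fold changes were 0.25 (W), −0.48 (Co), −0.20 (Al), −0.028 (Pb) and 0.10 (DU), with adjusted p in edgeR from 0.294 to 0.953. The spread of Irf7 between libraries of W, 16.4 to 116.65 CPM, was wider than any difference between the metals' medians.

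Counted together, 4 of the 9 genes fell in Pb (Ifit2, Rsad2, Mx1 and Ddx60) and 0 rose in edgeR, where 53.7% of all 15868 genes tested changed, 29.2% down and 24.5% up. In Co 2 of 9 fell (Ifit2 and Ddx60) and 0 rose, where 25.8% of all genes changed, 12.2% down and 13.6% up. In Al 2 of 9 fell (Ifit2 and Mx1) and 0 rose, where 25.2% of all genes changed, 12.4% down and 12.8% up. In W 0 of 9 passed, where 1.78% of all genes did, 0.366% down and 1.42% up. In DU 0 of 9 passed, where 15.3% of all genes did, 7.39% down and 7.89% up. In each of W and DU 1 gene had an unadjusted p under 0.05 in edgeR. DESeq2 called 0 of the 9 in W and in DU, where it called 764 and 2589 of all 15868 genes. Limma voom called 0 in W and 1 in DU, where it called 273 and 4548 of all 15868 genes. In Pb 11 of the 14 other settings called 1 gene, Isg15, as higher, DESeq2 and limma voom included. In Pb edgeR with the ribosomal minus large-protein level as a covariate called 0 of 9, with 4 at an unadjusted p under 0.05. That fit called 576 of all 15868 genes in Pb.

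Groups that did not overlap were rarer. In Pb 2 of the 9, Ifit2 and Rsad2, had every library below every Ta library, against 13.9% of all genes. In W, Co, Al and DU 0 of the 9 did, against 0.17%, 0.567%, 1.4% and 0.7% of all genes. For 0 of the 9 did every library of a metal lie above every Ta library, which held for 13% of all genes in Pb, 3.49% in Al, 2.07% in Co, 2.01% in DU and 0.366% in W.

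The median log2 fold change of the 9 genes was −0.88 in Co, −0.75 in Pb, −0.49 in Al, −0.12 in W and 0.10 in DU, against medians from −0.068 to −0.0065 over all genes tested. In Co, Al and Pb 8 of the 9 were below 0, the exception being Isg15, where 53.1% to 55.3% of all genes were below 0. These comparisons share the Ta libraries, so they are not independent of each other. A test among all 6 metals passed for 4 of the 9, Ifit2, Rsad2, Mx1 and Ddx60, where 58.4% of all genes passed. A test among the 5 metals without the Ta libraries passed for 3, Ifit2 (edgeR, adjusted p = 0.000748), Mx1 (0.00198) and Rsad2 (0.00903), where 53.2% of all genes passed.

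After the group means were taken out, the correlation of log2 CPM over the 47 libraries ran from −0.022 for Ifit2 with Isg15 to 0.75 for Irf7 with Usp18, with a median of 0.43 over 36 pairs. Among the higher pairs were Isg15 with Irf7 (0.73), Irf7 with Oasl (0.71), Irf7 with Mx1 (0.67), Rsad2 with Ddx60 (0.65) and Ifit2 with Ifit3 (0.57). Usp18 with Oasl gave 0.48, and Isg15 with Rsad2 gave 0.023. These are descriptions, since the libraries share depth and RNA composition.

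Single libraries were high or low for different sets of the genes. W replicate 8 was the highest of all 47 libraries for Isg15, Irf7, Usp18 and Oasl, at 27.2, 116.65, 14.6 and 17.4 CPM. In that library Ifit2 was at 2.40 CPM and Rsad2 at 2.67 CPM, both below the Ta medians. It was also the highest of 47 for 10 of 56 other type I response genes tested, against 0.718% of all genes. Others were highest for as many, Ta replicate 4 and DU replicate 5 for 11 each and DU replicate 6 for 10, against 6.01%, 3.53% and 14.1% of all genes. DU replicate 5 was the highest DU library for 6 of the 9 and above every Ta library for 7. Co replicate 1 was the highest Co library for 6 of the 9, and Co replicate 5 lay below every Ta library for 7.

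**Figure D3:**
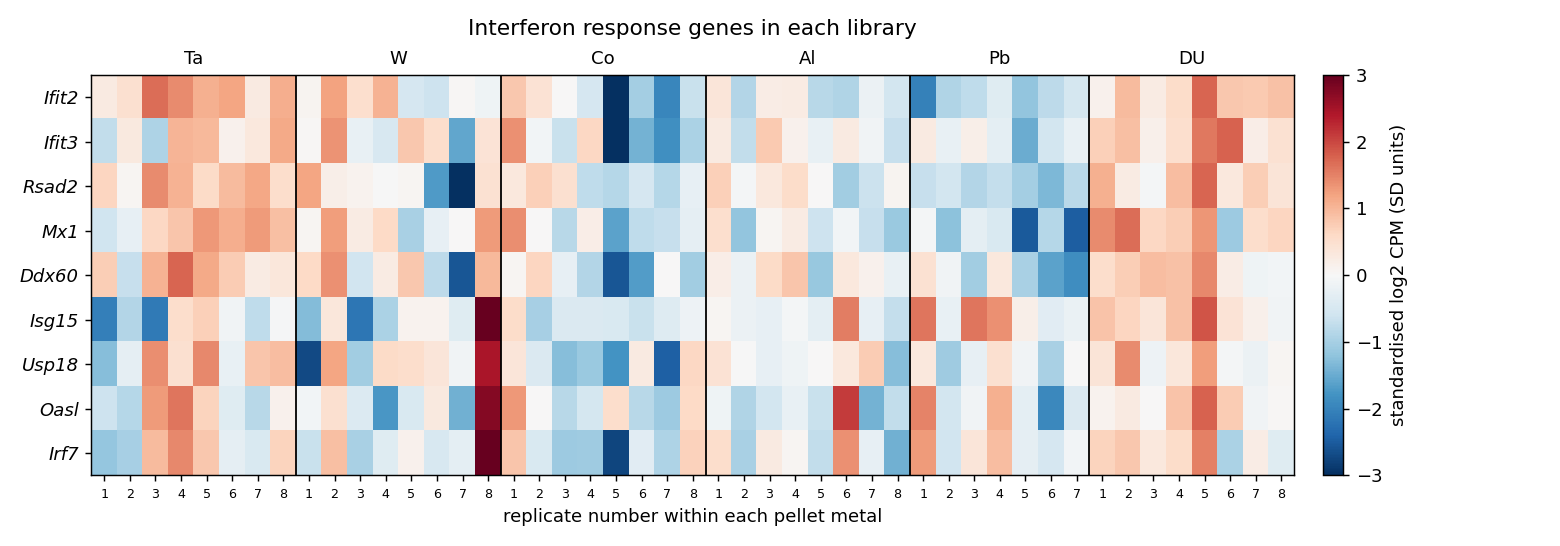
Standardised log2 CPM (colour, in SD units over the 47 libraries, limited to 3 SD either way) of the 9 genes in rows and the libraries in columns by metal. All 7 Pb columns are below 0 for Ifit2 and Rsad2 but not for Isg15. For Isg15, Usp18, Oasl and Irf7, W replicate 8 is the highest of the 47 libraries.

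Interferon ligands were near the limit of detection. Of the ligand genes in the table, 9 of type I and III and Ifng of type II, 0 passed the filter on low counts. Ifng had 49 counts over 13 libraries, Ifnk 32 counts over 9, and Ifnb1 3 counts over 2, so their levels could not be compared at this depth.

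Receptors and signalling proteins were well measured. In Pb, Ifnar1 fell from 30.7 ± 5.99 to 15.9 ± 2.23 CPM (−0.95 ± 0.17, edgeR adjusted p = 1.05e-05), whereas Ifnar2 was at −0.074 (edgeR, adjusted p = 0.752). Jak1 fell from 114.7 ± 11.7 to 49.97 ± 5.25 CPM (−1.20 ± 0.12, edgeR adjusted p = 3.47e-11). Stat2 fell by 0.51 on the log2 scale and Jak2 by 0.52. Tyk2 (−0.15) and Irf9 (−0.16) did not pass. Jak1 and Ifnar1 also fell in Co (−0.58 and −0.43) and in Al (−0.62 and −0.57). In W 0 of the 12 genes for receptors, kinases and the STAT complex passed in edgeR (7 at an unadjusted p under 0.05), 0 in DESeq2 and 0 in voom. In DU 0 passed in edgeR (2 at an unadjusted p under 0.05, Ifngr1 and Tyk2), 0 in DESeq2 and 2 in voom. Of all genes, 1.78% passed in W and 15.3% in DU in edgeR. DESeq2 called 764 of 15868 genes in W and 2589 in DU, and voom called 273 and 4548.

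The other interferon lists held 150 genes, of which 9 were not matched by symbol and 15 more did not pass the filter on low counts. Over the rest, 44 fell (34.9%) and 12 rose (9.52%) in Pb, where 29.2% of all genes fell and 24.5% rose. In Co 23 fell (18.3%) and 5 rose (3.97%), against 12.2% and 13.6% of all genes. In Al 12 fell (9.52%) and 7 rose (5.56%), against 12.4% and 12.8% of all genes. With the ribosomal minus large-protein level as a covariate, 15 fell in Pb (11.9%), 3 in Co (2.38%) and 4 in Al (3.17%) in edgeR, and 0 rose in each. Of all 15868 genes, 229 fell and 347 rose in Pb in that fit. In Co 44 fell and 67 rose, and in Al 59 fell and 237 rose. In DU 3 fell (2.38%) and 12 rose (9.52%), against 7.39% and 7.89% of all genes. Without DU replicates 5 and 6, 0 fell and 5 rose (3.97%), against 599 and 1202 of all 15951 genes in that fit. With the macrophage marker level as a covariate 1 fell (0.794%) and 5 rose (3.97%), against 737 and 1124 of 15868. With that composition covariate 0 fell and 0 rose (7 at an unadjusted p under 0.05 in edgeR), against 200 and 299 of 15868. With limma voom 8 fell (6.35%) and 17 rose (13.5%), against 2393 and 2155 of 15868. In W 0 passed in edgeR (28 at an unadjusted p under 0.05), 2 in DESeq2 and 2 in voom. Of all genes 1.78% passed in edgeR, 764 of 15868 in DESeq2 and 273 of 15868 in voom. Of 18 nucleic acid sensors and adaptors 10 fell in Pb (55.6%, against 29.2% of all genes), and 2 with the composition covariate (11.1%, against 229 of all 15868 genes). Among the 10 was Tlr3, an endosomal receptor for double-stranded RNA, from 39.9 ± 4.80 to 18.1 ± 3.76 CPM. Of 56 other type I response genes 19 fell (33.9%) and 5 rose (8.93%) in Pb, against 29.2% and 24.5% of all genes. Slfn5, a Schlafen family gene, fell from 50.8 ± 10.1 to 11.9 ± 2.94 CPM, and Ifitm2, a membrane protein that blocks viral entry, rose from 115.2 ± 16.7 to 200.5 ± 26.6 CPM. Irf3, the constitutive factor that starts interferon transcription, rose from 163.0 ± 16.6 to 299.8 ± 28.5 CPM. Ifitm2 rose in Co, Al and DU as well (0.43, 0.48 and 0.53 on the log2 scale).

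In DU the risers were partly genes of the interferon gamma response, 5 of 24 up and 0 down, where 7.89% of all genes rose. Without DU replicates 5 and 6, 1 of 24 rose, against 1202 of all 15951 genes. With the macrophage covariate 1 of 24 rose, against 1124 of 15868. With the composition covariate 0 of 24 rose in edgeR (0 at an unadjusted p under 0.05), against 299 of 15868. Macrophage and dendritic cell markers rose in DU too, 4 of 18. Psme2, a proteasome activator subunit, rose from 64.7 ± 10.6 to 97.5 ± 30.2 CPM, and Isg20, an exonuclease, from 4.04 ± 1.45 to 8.23 ± 2.29 CPM. Cxcl11, a chemokine induced by interferon, had a log2 fold change of 2.45 ± 0.54 (edgeR, adjusted p = 0.00139), but DU replicate 6 alone was at 183.3 CPM, and without replicates 5 and 6 the change was 0.18 (edgeR, adjusted p = 0.806).

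RNA composition and cell type markers also differed from Ta, but not every marker list did so in every metal. In Pb 7 of 18 macrophage and dendritic cell markers fell and 0 rose, where 29.2% of all genes fell and 24.5% rose. Their summed levels were 147.0 to 437.7 CPM in Pb, against 162.7 to 917.2 CPM in Ta. In DU 4 rose and 0 fell, at 247.5 to 1442 CPM, where 7.89% of all genes rose and 7.39% fell. In Co 3 fell and 0 rose, and in Al 0 did either, where 12.2% and 12.4% of all genes fell. Adgre1, Cd163, Itgam, Cx3cr1 and Siglech were at 0 in some library. T, NK and B cell markers summed to 19.2 to 46.8 CPM in Pb and 21.1 to 141.7 CPM in Ta. Of these 18 markers, 2 were lower in Pb, 2 in Co and 0 in Al. Endothelial markers summed to 99.1 to 186.2 CPM in Pb against 426.3 to 598.8 CPM in Ta, with 9 of 10 lower, and 7 of 10 were lower in Al and 3 of 10 in Co. Of 15 kidney tubule and podocyte markers, 9 fell and 1 rose in Pb, 4 fell in Al and 1 fell in Co. The part of the endothelial and kidney markers in the fall of the 4 genes was not tested.

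With the macrophage and dendritic cell marker level as a covariate, Ifit2 (−1.63), Rsad2 (−1.76), Mx1 (−1.48) and Ddx60 (−1.38) still passed in Pb, where 8434 of all 15868 genes did. Ddx60 in Co, at −1.17, no longer passed in that fit (edgeR, adjusted p = 0.162). With the ribosomal minus large-protein level as a covariate, 0 of the 9 passed in any of the 5 comparisons in edgeR, while 4 had an unadjusted p under 0.05 in Pb. Few genes of any kind passed in that fit. Of all 15868 genes, 576 passed in Pb, 111 in Co, 296 in Al, 499 in DU and 0 in W. The Pb changes were then −1.04 for Ifit2 (edgeR, adjusted p = 0.391), −1.01 for Rsad2 (0.453), −1.84 for Mx1 (0.162) and −2.27 for Ddx60 (0.280). Since this measure does not overlap between Ta and any of Pb, Co, Al and DU, the metal and the RNA composition cannot be told apart in those comparisons. Within groups, Ifit2 correlated at 0.63 with the macrophage measure and −0.32 with the composition measure, and Isg15 at 0.27 and 0.41, given as descriptions over 47 libraries.

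**Figure D4:**
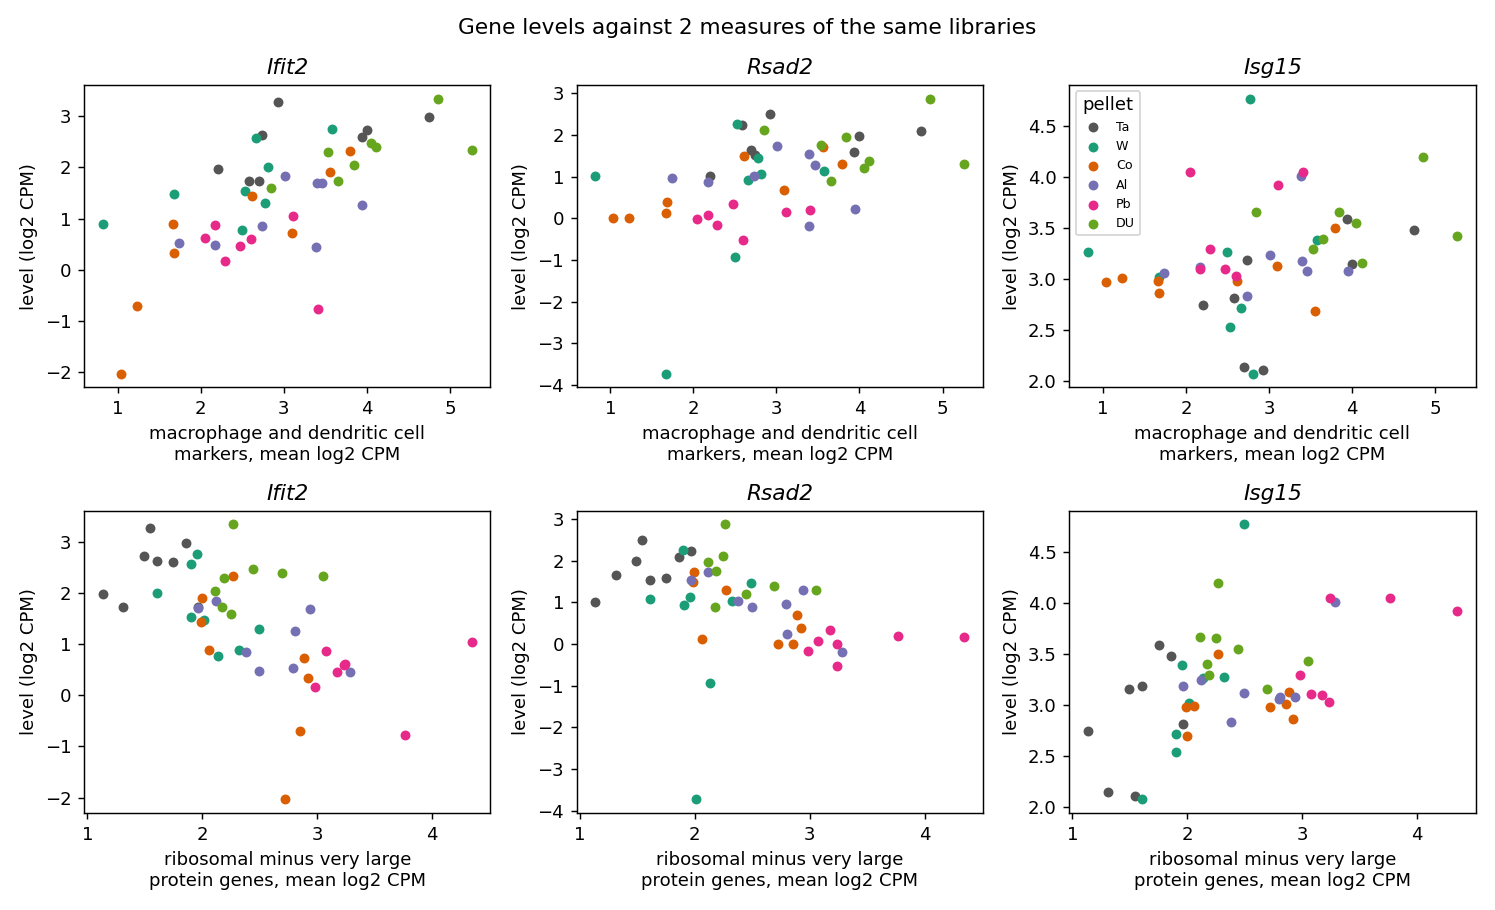
Log2 CPM of Ifit2, Rsad2 and Isg15 (vertical axes) against the mean log2 CPM of macrophage and dendritic cell markers (top) and against the ribosomal minus very large protein gene difference in mean log2 CPM (bottom); points are libraries, coloured by metal. Pb libraries stand apart from Ta on the bottom axis (2.98 to 4.35 against 1.13 to 1.96) and overlap Ta on the top axis (2.05 to 3.41 against 2.20 to 4.75).

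The genes outside the 9 whose within-group pattern was most like their mean standardised level, over 47 libraries and 15868 genes, were Lgals3bp (r = 0.82), Lgals9 (0.82), Samd9 (0.82), Ifi27l2b (0.82), LOC108351606 (0.81), Gbp2 (0.81), Oasl2 (0.80), Uba7 (0.80), Bst2 (0.79) and Myadm (0.77). Of these 10, 7 were on the interferon lists, among them Gbp2, a guanylate-binding GTPase, Uba7, the enzyme that activates Isg15, and Bst2 (tetherin), which holds virions at the cell surface.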

How the data were processed

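RNA from 47 rat kidneys was sequenced and counted per gene by the authors. The deposited values are raw counts, aligned with STAR 2.7.2a and counted with featureCounts (Subread 1.6.4) on mRatBN7.2, per the submitters' processing notes; annotation, strand and treatment of reads that match several genes are not given in the sources used here, so paralogs such as Ifit2 and Ifit3 could share reads. The 29 lines without a number for every library were left out, 5 of them with an identifier shaped like a gene symbol. Groups and replicate numbers came from the sample titles, and nothing else says how the animals were handled, so p-values measure the spread between these samples. No library repeated another: over 161 within-group pairs chi-square over its degrees of freedom was at least 16.3. All libraries entered 1 edgeR 4.0.16 quasi-likelihood fit (R 4.3.3, TMM, filterByExpr, two-sided, Benjamini-Hochberg over 15868 genes, threshold 0.05). Log2 CPM used a prior count of 2. Limits from 0 counts (3 counts over the library total, before TMM scaling) cover counting error only. Alternatives were DESeq2 1.42.0, limma 3.58.1 voom, other scalings and filters, covariates and left-out libraries. Simulated data had 200 changed genes per comparison, fewer than were called here, all with a mean of at least 1 CPM. There 40.3% to 47.8% of 1.5-fold, 70.2% to 79.1% of 2-fold and 93.9% to 97.0% of 4-fold changes were recovered. Named were all 9 genes, the ligands, receptors, kinases and STATs, the 5 other list genes with the smallest p among those past the test per comparison (not all are reported here), and the 10 most alike. The genes, lists and tests were chosen with earlier results of these data known.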

Additional observations from a re-analysis of the deposited data

Results flagged for a closer look

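In 12 of 54 sets of a gene and a metal, 1 library stood farther from the rest than Dixon's 95% value allows. The usual 1 in 20 holds for independent sets of normally distributed values. These were CPM without a log, and the sets share libraries and correlated genes, so 12 of 54 cannot be judged against it. W replicate 8 did so for Isg15 (27.2 CPM, next library 10.4), Irf7 (116.65, next 39.4), Usp18 (14.6, next 6.78) and Oasl (17.4, next 6.51). DU replicate 5 did so for Ifit2 (10.1 CPM, next 5.48), Isg15 (18.2, next 12.6), Rsad2 (7.25, next 4.24) and Oasl (11.4, next 7.68). Co replicate 1 did so for Isg15 (11.2 CPM, next 8.64) and Mx1 (15.7, next 6.52). Al replicate 6 did so for Isg15 (15.99 CPM, next 9.36) and Oasl (13.1, next 5.0).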

How the results depend on the processing

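Of 629 fold changes recomputed under settings other than leaving out 1 library, 557 kept their direction and side of the threshold, 14 lost their call, 23 gained one and 35 changed sign. Of 95 counts of called genes 34 differed, 20 of them by at most 1.5 times and 14 by more, or from or to 0. Ifit2 in Co, Al and Pb and Rsad2 and Mx1 in Pb kept their calls in all 47 fits without 1 library. The called number in Co (2 in the report) was 5 at a threshold of 0.1, 1 with voom, 4 with the replicate block, 4 with replicate numbers 1 to 4 against 5 to 8 as a covariate, 1 with the macrophage covariate, 0 with the composition covariate and 1 without Ta replicates 4, 5 and 6 together. Smaller differences included Pb at 5 in place of 4 in 10 settings, with Isg15 called higher, Co at 3 with DESeq2 and Al at 3 with only the groups compared. Al (2) gave 0 and Pb (4) gave 0 with the composition covariate, and Al gave 1 without those Ta replicates. Over all 15868 genes the fit with the composition covariate called 111 in Co, 296 in Al and 576 in Pb. DU (0) gave 1 with voom and 1 without those Ta replicates. The test among 6 metals (4) gave 1 with the composition covariate, and that among 5 metals (3) gave 5 with the covariate of low against high replicate numbers. Without 1 library the numbers were 0 to 0 in W, 1 to 5 in Co, 1 to 3 in Al, 4 to 5 in Pb, 0 to 1 in DU, 3 to 5 among 6 metals and 3 to 4 among 5. The cause of these shifts was not tested.

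All 35 sign changes were in genes not called. With voom they were Usp18 in W (−0.034), Oasl in W (−0.080), Irf7 in Pb (0.078) and Usp18 in DU (0.25). With the replicate block they were Usp18 in W (−0.10), Oasl in W (−0.063), Irf7 in Pb (0.035) and Mx1 in DU (−0.019). Over all genes, deviations from the group means had a median correlation of 0.0116 over 115 pairs of same-numbered libraries (−0.353 to 0.360). For 805 pairs with other numbers the median was −0.00074 (−0.442 to 0.423). These values cannot tell whether the numbers pair animals, and the labels do not say. With the macrophage covariate the sign changes were Ifit3 (0.30) and Ddx60 (0.16) in W and Oasl in Co (0.20). They were also Irf7 (0.25) and Oasl (0.13) in Pb, and Irf7 (−0.14), Mx1 (−0.12) and Oasl (−0.13) in DU. With the composition covariate they were Irf7 (−0.13), Usp18 (−0.34) and Oasl (−0.38) in W, Isg15 in Co (−0.44), Al (−0.34) and Pb (−0.49), and Ifit2 (0.28), Irf7 (−0.37), Rsad2 (0.30) and Oasl (−0.44) in DU. Without Ta replicates 4, 5 and 6 they were Ifit3 (0.15) and Ddx60 (0.012) in W, Oasl in Co (0.072), Irf7 (0.058) and Oasl (0.0050) in Al, Irf7 (0.22) and Oasl (0.10) in Pb, and Ddx60 in DU (0.32). Without DU replicates 5 and 6, a setting chosen after seeing the data, it was Oasl in DU (−0.022).

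Leaving out 1 library gave a range across 0 in W for Ifit3 (−0.38 to 0.042), Isg15 (−0.030 to 0.51), Irf7 (−0.32 to 0.43), Usp18 (−0.39 to 0.25) and Oasl (−0.42 to 0.22), in Co for Isg15 (−0.038 to 0.19) and Oasl (−0.33 to 0.031), in Pb for Irf7 (−0.18 to 0.14) and Oasl (−0.34 to 0.062), and in DU for Irf7 (−0.0057 to 0.28), Mx1 (−0.0054 to 0.33), Rsad2 (−0.29 to 0.069), Usp18 (−0.26 to 0.060) and Ddx60 (−0.48 to 0.086).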
